A study of Mus musculus with 8 samples.

Results

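Of 174594 ATAC peaks in MPP3 and MPP4 cells, 40400 were promoter peaks, meaning that their center lay within 1 kb of the start of a transcript of a protein-coding gene. Transcript starts came from GENCODE vM21 on mm10, and the choice used positions alone. The MPP3 table held 20117 promoter peaks among 87642 peaks (23.0%), and the one for MPP4 held 20283 among 86952 (23.3%). Both cell types are multipotent blood progenitors, MPP3 cells being biased to myeloid and MPP4 cells to lymphoid fates. They were sorted from the bone marrow of C57BL/6 mice as LSK+ CD150- CD48+ (MPP3) or LSK+ CD150- CD48+ Flt3+ (MPP4) cells. All mice carried the Ebf1fl/fl alleles by the labels. The WT mice were Ebf1fl/fl Tie2Cre +/+ and the Ebf1-KO mice Ebf1fl/fl Tie2Cre +/cre, in which the Tie2 (Tek) promoter drives Cre in endothelium and blood-forming cells. The paper describes the WT mice differently, in its results with wild-type Ebf1 alleles and Tie2Cre, and in its methods as littermates with floxed alleles or with Cre. There were 2 libraries for each genotype and cell type, 8 in all. The MPP3 WT mice were 8 and 8, the MPP3 Ebf1-KO mice 8 and 9, the MPP4 WT mice 9 and 9, and the MPP4 Ebf1-KO mice 8 and 8 weeks old. All were female but 1 male MPP4 WT mouse. Each peak has 1 level, a mean over the 4 libraries of both genotypes of a cell type. There is hence no value per library, no spread between mice, and no comparison of genotypes here. The peaks of MPP3 and MPP4 cells were defined and scaled separately, so their levels are set side by side and were not tested against each other.

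A promoter is the DNA around a transcription start, where general transcription factors and RNA polymerase II assemble. Many mammalian promoters lie in CpG islands, which are rich in G, C and the CpG dinucleotide, stay free of DNA methylation and are open in most cell types. They often hold GC boxes, bound by SP and KLF factors, and CCAAT boxes, bound by NF-Y. Promoters of genes used in few cell types are more often poor in CpG, some of them with a TATA box close upstream of the start. ATAC-seq reports accessibility through the Tn5 transposase, which cuts and tags DNA where it is not covered by nucleosomes. An open promoter is not necessarily a transcribed one.

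The sequences below are the DNA just upstream of the start at 10 promoters, read 5′ to 3′ toward the gene. They are examples picked from a larger set of stretches read in the same way. Sp1 and Mtmr4 had the highest MPP3 levels outside a repeat block, Rpl13a and Rps7 encode ribosomal proteins, Ebf1 and Cebpa are the genes of the study's question, and Il7r, Mylk3, Siglech and Klrd1 differed in level between the tables. These genes were chosen after their values were seen. Each sequence lies inside the peak, on mm10, and ends within 7 bases of the start. Capitals mark matches on either strand to any of the 14 motifs searched, which are spelled out with their frequencies further on. A match is a description of the letters and not a bound site.
Sp1, chr15:102406023-102406142, plus strand: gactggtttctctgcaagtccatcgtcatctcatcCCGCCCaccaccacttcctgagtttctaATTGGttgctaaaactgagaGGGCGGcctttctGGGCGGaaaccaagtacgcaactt
Mtmr4, chr11:87592042-87592161, plus strand: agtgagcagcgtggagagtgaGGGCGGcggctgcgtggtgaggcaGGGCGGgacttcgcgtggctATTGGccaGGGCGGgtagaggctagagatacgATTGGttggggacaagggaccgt
Rpl13a, chr7:45128762-45128881, minus strand: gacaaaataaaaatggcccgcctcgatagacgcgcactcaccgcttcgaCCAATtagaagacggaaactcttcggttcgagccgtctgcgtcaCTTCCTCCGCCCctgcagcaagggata
Rps7, chr12:28635954-28636073, minus strand: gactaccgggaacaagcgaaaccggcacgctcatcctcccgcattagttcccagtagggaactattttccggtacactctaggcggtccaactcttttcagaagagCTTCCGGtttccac
Ebf1, chr11:44617197-44617316, plus strand: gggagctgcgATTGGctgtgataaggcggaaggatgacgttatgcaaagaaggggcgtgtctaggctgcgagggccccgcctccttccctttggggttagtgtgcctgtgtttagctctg
Cebpa, chr7:35119173-35119292, plus strand: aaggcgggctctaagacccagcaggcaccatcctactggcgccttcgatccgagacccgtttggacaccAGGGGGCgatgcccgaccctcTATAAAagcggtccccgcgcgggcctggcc
Il7r, chr15:9529836-9529955, minus strand: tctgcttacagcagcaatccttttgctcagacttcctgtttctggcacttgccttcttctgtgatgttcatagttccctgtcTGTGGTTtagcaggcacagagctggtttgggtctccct
Mylk3, chr8:85381035-85381154, minus strand: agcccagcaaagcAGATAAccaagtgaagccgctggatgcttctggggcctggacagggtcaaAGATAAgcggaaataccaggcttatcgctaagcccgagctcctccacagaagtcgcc
Siglech, chr7:55768064-55768177, plus strand: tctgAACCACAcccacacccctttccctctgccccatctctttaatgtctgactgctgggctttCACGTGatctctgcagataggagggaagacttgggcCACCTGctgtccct
Klrd1, chr6:129591662-129591781, plus strand: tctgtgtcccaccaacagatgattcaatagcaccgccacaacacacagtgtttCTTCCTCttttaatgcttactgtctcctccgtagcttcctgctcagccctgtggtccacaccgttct
Sp1 held 3 GC boxes (GGGCGG or its reverse complement) and 1 CCAAT box, and Mtmr4, which encodes a lipid phosphatase, held 3 and 2. Rpl13a held a GC box that overlaps a PU.1 core by its first base, and a CCAAT box whose first base was at -71. Rps7 held an ETS core at -14. The stretch of Ebf1 held a CCAAT box at -110, and that of Cebpa a TATA box at -30 and a CTCF core. Il7r held a RUNX core, Mylk3 held 2 GATA cores, Siglech held a RUNX core, a CACGTG E-box and an E2A-type E-box, and Klrd1 held a PU.1 core. None of these last 4 stretches held a GC box or a CCAAT box. Stretches read in the same way at Flt3 and Gp1ba, which also differed in level between the tables, held no motif match at all.

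Promoter peaks sat close to the start. The median distance between the center and the nearest start was 100 bp in MPP3 and 101 bp in MPP4, where 1 kb was allowed. The center lay within 250 bp of a start in 70.0% of the MPP3 and 69.3% of the MPP4 promoter peaks, and 66.3% and 65.0% of the peaks held a start. Centers were upstream of the start in 55.2% and 55.7%. In MPP3, 31.4% of the centers were in an intron, 28.9% outside genes, 26.8% in an untranslated part of an exon, 8.56% in coding sequence and 4.34% in another exon. Among all other MPP3 peaks, 46.1% were in an intron and 49.0% outside genes.

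**Figure D1:**
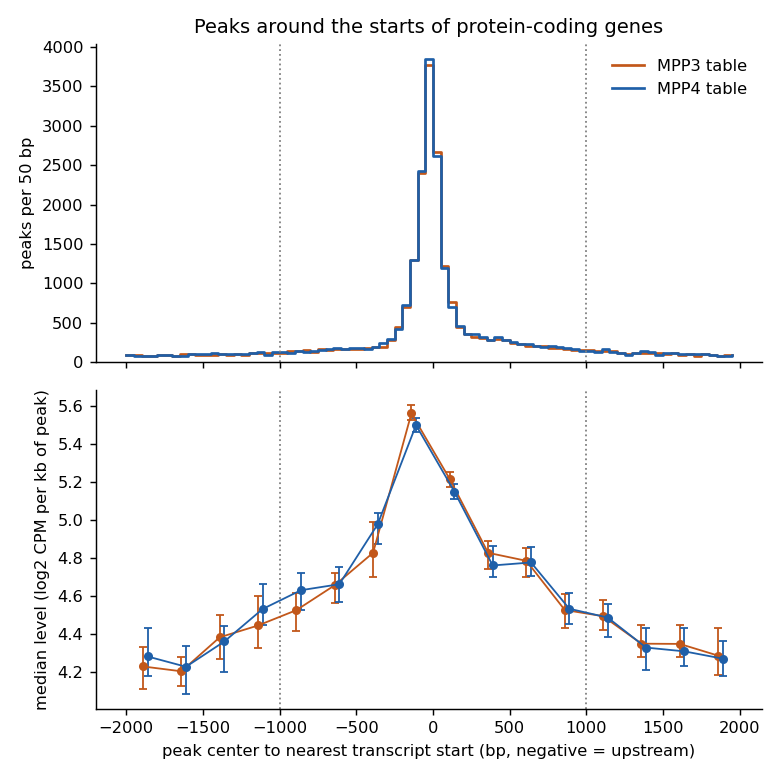
Number of all peaks in bins of distance between the peak center and the nearest start (x axis, bp, negative upstream) in both tables, above the median level by bin with 95% order-statistic intervals. Dotted lines mark the 1 kb limit, and peaks beyond it are not promoter peaks. Peaks crowd around the start, where the levels are also highest (5.56 in MPP3 and 5.50 in MPP4 in the 250 bp upstream).

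Levels were highest within 250 bp of the start. Levels are the mean log2 CPM minus the log2 of the peak length in kb, given as log2 CPM per kb here, so that peaks of different length can be set side by side. The median was 5.56 in MPP3 and 5.50 in MPP4 for centers in the 250 bp upstream of the start, and 5.22 and 5.15 for those in the 250 bp downstream. It was 4.53 in both tables at 750 to 1000 bp downstream, and 4.52 and 4.63 at the same distance upstream. Promoters with starts on both strands within 1 kb numbered 1538 in MPP3 and 1573 in MPP4. Their median level was 6.03 in MPP3, against 5.10 for other promoter peaks, and 5.91 against 5.08 in MPP4. A pair of histone genes that are transcribed away from each other, Hist1h2bc and Hist1h2ac, shared 1 such peak at 8.01 in MPP3 and 7.89 in MPP4. The peaks with starts on both strands were also more often CpG-rich, as defined further on. The shares were 82.8% in MPP3 and 81.8% in MPP4, against 56.7% and 56.9% of the other promoter peaks.

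Promoter peaks were longer and denser than other peaks. Their median length was 377 bp against 256 bp in MPP3 and 364 bp against 272 bp in MPP4. Their median level was 5.18 (95% interval 5.15 to 5.20) against 3.93 (3.92 to 3.94) in MPP3. In MPP4 the medians were 5.15 and 3.93. Intervals of medians and shares count peaks and not mice. Promoters made up 5.79% of the weakest 10% of all MPP3 peaks and 67.7% of the strongest 10%, with 5.95% and 59.4% in MPP4. Of the 1000 densest peaks, 84.2% (81.8 to 86.3) were promoter peaks in MPP3 and 66.8% (63.8 to 69.7) in MPP4. The strong end of the MPP3 table thus held a larger share of promoters than that of the MPP4 table. Promoter peaks covered 30.8% of the summed peak length in MPP3 and 29.6% in MPP4, and held 52.5% and 46.7% of the summed CPM.

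**Figure D2:**
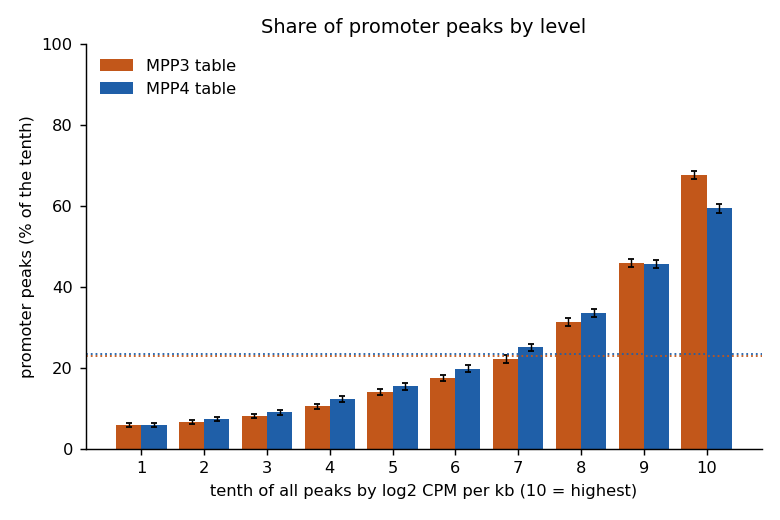
Share of promoter peaks (y axis, %) in each 10% step of all peaks, ordered from the lowest to the highest log2 CPM per kb (x axis), for each table, with 95% Wilson intervals that cover counting error only. Dotted lines mark the share over all peaks. The share climbs from 5.79% to 67.7% in MPP3 and from 5.95% to 59.4% in MPP4.

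The densest promoter peaks included those of transcription and signaling regulators that are not particular to blood. In each table, 3 of the 10 highest levels came from a repeat block near the start of chromosome 9, at the predicted genes Gm10718 (9.91 and 9.27) and Gm11168 (8.73) in MPP3 and Gm10717 (9.68) and Gm10718 (9.01 and 8.57) in MPP4. The copies of a repeat share reads, so these levels are uncertain. The lists of the highest levels that follow leave the block out, a choice made after seeing the data. The highest level in MPP3 was then at Sp1, which encodes the GC box binding factor SP1, with 9.01 over chr15:102405339-102406398. Mtmr4 (8.97), Kctd9 (8.92), Zfp687 (8.89), Fam72a (8.77), Khsrp, an RNA-binding protein gene (8.70), Mxd4, a MAX partner (8.68), Sin3a, a corepressor (8.65), Rfx1 (8.65) and G3bp1, a stress granule protein gene (8.64), followed. In MPP4 the order was Kctd9 (8.82), Mtmr4 (8.80), the histone acetyltransferase gene Kat6b (8.77), Agpat3 (8.60), Khsrp (8.56), Sp1 (8.54), Fam72a (8.52), G3bp1 (8.51), Mxd4 (8.50) and Agpat1 (8.46). Among all these, 7 genes were in the top 10 of both tables.

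Counted per peak rather than per kb, the strongest MPP3 promoters were at Sp1 (log2 CPM 9.09), Ppp2r3d (8.98), Zbtb20 (8.94), Cic (8.78), Kat6b (8.69), Gsk3b (8.63), Khsrp (8.62), Agpat1 (8.60), Rab40c (8.56) and Lnpep (8.55). In MPP4 they were at Sp1 (8.69), Zbtb20 (8.61), Lnpep (8.51), Khsrp (8.50), Cic (8.46), Zfp687 (8.38), Agpat1 (8.37), Gsk3b (8.35), Mtmr4 (8.30) and Rab40c (8.25). Zbtb20 and Cic encode transcriptional repressors and Gsk3b a kinase of the WNT and insulin pathways. Some genes held many promoter peaks. Foxp1, a forkhead factor gene with 22 starts, had 14 in each table, and the cytoskeletal linker gene Plec, with 16 starts, had 11 in each. Pde4d had 10 in MPP3 and 9 in MPP4. In all, 38.3% of the genes with a promoter peak had more than 1 in MPP3 and 40.0% in MPP4.

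Most promoter peaks were CpG-rich, which here means a GC content of at least 50% and an observed to expected CpG ratio of at least 0.6 in the 300 bp around the center. This held for 58.7% of promoter peaks against 3.28% of other peaks in MPP3, and for 58.9% against 3.3% in MPP4. CpG-rich promoter peaks had a median level of 5.60 in MPP3 and 5.49 in MPP4, and CpG-poor promoter peaks of 4.60 and 4.65. The CpG-rich peaks away from promoters were nearer to the CpG-poor promoter peaks, with 4.69 and 4.61. CpG-rich promoter peaks were also longer, at a median of 460 bp against 283 bp in MPP3.

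The same contrast held for genes with and without a promoter peak. Of 20807 autosomal protein-coding genes, 14048 (67.5%) had a promoter peak in MPP3 and 14004 (67.3%) in MPP4. Both tables had one for 13536 genes, and neither for 6291 (30.2%). The 300 bp from 250 before to 50 after the outermost protein-coding start were read for 20722 genes, whether or not a peak lay there, a window chosen after seeing the data. It was CpG-rich in 62.1% (61.3 to 62.9) of the genes with a promoter peak in both tables, and in 6.27% (5.70 to 6.90) of the genes with none. Genes with a promoter peak in 1 table lay between, with 29.4% (25.6 to 33.4) for MPP3 and 21.4% (17.9 to 25.4) for MPP4. Seen from the starts, 92.9% of the 9010 CpG-rich ones belonged to a gene with a promoter peak in both tables, against 43.6% of the 11712 others.

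Olfactory receptors and genes with provisional names were the largest families without a promoter peak among those counted. Olfactory receptors were 1091 of the 6291 genes (17.3%), genes with a provisional Gm name 927 (14.7%), and vomeronasal receptors, which detect pheromones, 327 (5.20%). A promoter peak in either table was found for 37 of 1128 olfactory receptor genes (3.28%), 2 of 329 vomeronasal receptor genes, 10 of 113 keratin genes, 4 of 64 defensin genes and 1 of 38 taste receptor genes. These families hold near-identical copies that can share reads, so their counts are uncertain.

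Motifs of general factors were far more frequent in promoter peaks than in other peaks, and motifs of the blood factors RUNX, GATA and PU.1 were less frequent. In 300 bp around the center in MPP3, the GC box GGGCGG was found in 55.1% of promoter peaks and 10.5% of others, the ETS core CCGGAAG in 12.4% and 2.82%, the YY1 core ATGGCGG in 7.21% and 1.23%, the NRF1 core GCATGCG in 4.12% and 1.53%, and the CRE core GACGTCA in 4.0% and 1.19%. The CTCF core AGGGGGC was in 15.5% and 7.80%, the E-box CACGTG in 8.83% and 5.99%, and the EBF1 consensus TCCCNNGGG in 9.32% and 5.94%. The CCAAT box was nearly as frequent in other peaks (27.5%) as in promoter peaks (29.9%). The RUNX core TGTGGTT went the opposite way with 5.35% and 14.4%, as did the GATA core AGATAA with 5.81% and 13.9%, the PU.1 core GAGGAAG with 17.6% and 25.7%, and the TATA box TATAAA with 4.67% and 10.2%. The E2A-type E-box CAGGTG was in 20.7% and 21.8%. In MPP4, 9 of the 14 motifs were likewise more frequent in promoter peaks, among them the EBF1 consensus (8.62% against 4.72%). Short G- and C-rich motifs also follow base composition. The GC box was in 75.8% of the CpG-rich and 25.8% of the CpG-poor promoter peaks of MPP3, and the RUNX core in 2.35% and 9.61%. Matches were searched on both strands, and the GC box can overlap the CTCF core.

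Over the 300 bp at 1 start of each of the 20722 genes, the GC box was in 44.5%, the CCAAT box in 38.6%, the ETS core in 11.2%, the NRF1 core in 4.46%, the YY1 core in 4.91%, the CRE core in 4.05%, the E-box CACGTG in 7.78%, the TATA box in 12.7%, the E2A-type E-box in 20.5%, the PU.1 core in 13.1%, the RUNX core in 5.10%, the GATA core in 9.83%, the CTCF core in 12.2% and the EBF1 consensus in 8.02%. Starts of genes with a promoter peak in both tables held a GC box in 60.0%, against 11.9% for genes with none. The ETS core was in 16.0% against 2.23%, and the YY1 core in 6.82% against 1.23%. The TATA box was instead in 7.34% against 24.1%, and the GATA core in 6.57% against 16.8%. CCAAT boxes (37.6% and 41.1%) and the EBF1 consensus (8.22% and 7.50%) were about as frequent at both kinds of start.

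Several motifs kept a fixed place before the start. Over 12569 starts under an MPP3 promoter peak, the first base of a GC box was most often 50 to 40 bp upstream (9.92% of the starts, against 1.32% in the same bin for the 13907 starts of genes without a promoter peak). The CCAAT box peaked 70 to 60 bp upstream (3.68%), the CRE core 50 to 40 bp upstream (0.589%), and the NRF1 core 60 to 50 bp upstream (0.509%). The ETS core peaked in the last 10 bp before the start (1.81%, while its highest bin at genes without a promoter peak had 0.23%), and the YY1 core 20 to 30 bp after it (1.19%). The TATA box had its place 30 to 20 bp upstream, with 0.99% under promoter peaks and 3.39% at genes without one. The ETS core of Rps7 at -14 and the TATA box of Cebpa at -30 in the sequences above lie within a few bases of these places.

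**Figure D3:**
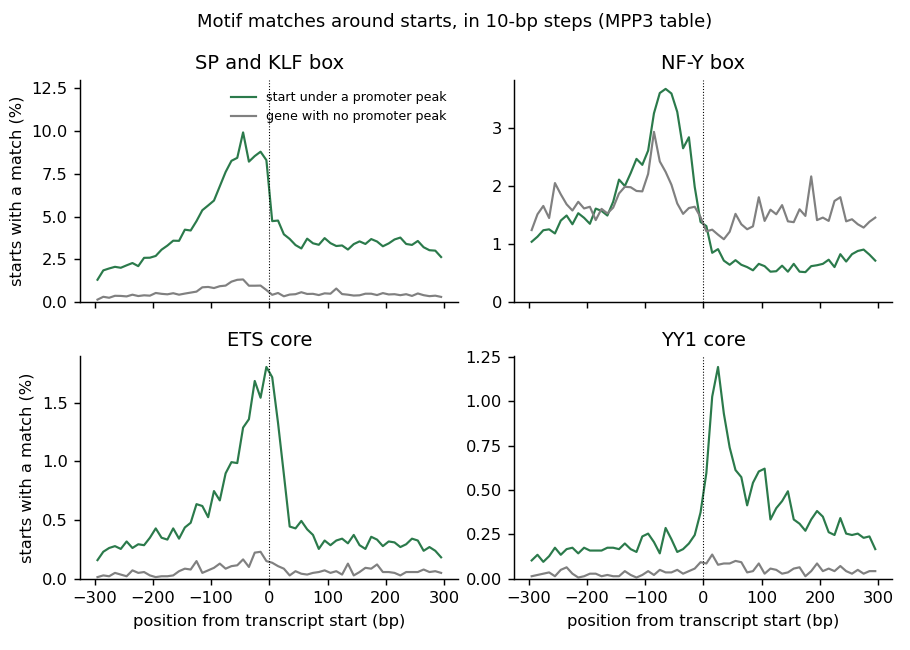
Share of starts (y axis, %) with the first base of a motif in each 10-bp bin (x axis, bp from the start), for starts under an MPP3 promoter peak and for all starts of genes without a promoter peak. The panels show the GC box (SP and KLF box), the CCAAT box (NF-Y box), the ETS core and the YY1 core. The GC box reaches 9.92% of the former starts 50 to 40 bp upstream, while the YY1 core peaks after the start.

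Promoter peaks with a CCAAT box were denser than those without, most of all among CpG-rich peaks. This comparison was added after seeing the data and was made first among CpG-rich promoter peaks that hold a start. In MPP3 the median level was 6.22 (6.17 to 6.27) for the 3104 peaks with a CCAAT box and 5.54 for the 6612 without, a difference of 0.68, at median lengths of 499 and 503 bp. In MPP4 it was 6.10 and 5.42, again 0.68 apart. Among the CpG-rich peaks, differences for the CRE core (0.27 in MPP3 and 0.26 in MPP4), the GC box (0.18 and 0.16) and the ETS core (0.18 and 0.16) were smaller. The NRF1 core (0.11 and 0.01) and the YY1 core (0.08 and 0.01) made little difference in MPP4. Peaks with an E2A-type E-box or an EBF1 consensus were lower, by -0.34 and -0.27 in MPP3 and by -0.27 and -0.26 in MPP4. Among CpG-poor promoter peaks that hold a start, the order was different. The GC box (0.47 in MPP3 and 0.46 in MPP4), the ETS core (0.41 and 0.44) and the YY1 core (0.43 and 0.61, from 109 peaks in each table) came before the CCAAT box (0.18 and 0.38). For the EBF1 consensus (0.10 and 0.08), the intervals of the medians with and without it overlapped. They were 4.74 to 5.10 and 4.81 to 4.91 in MPP3, and 4.86 to 5.15 and 4.87 to 4.97 in MPP4. Lengths also differed among the CpG-poor peaks, with medians of 385 bp with a GC box and 333 bp without in MPP3. With the 6 general motifs counted together (GC box, CCAAT box, ETS, NRF1, YY1 and CRE cores), the median of the CpG-rich peaks in MPP3 went from 5.35 without any, over 5.48 with 1 and 5.96 with 2, to 6.17 with 3 or more. In MPP4 the order was the same, with 5.31, 5.37, 5.84 and 6.02.

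Gene lists separated by how many members had a promoter peak and by its level, taken from the strongest promoter peak of each gene. Over all genes with a promoter peak, the median level was 5.60 in MPP3 and 5.53 in MPP4, and the median difference of MPP4 minus MPP3 was -0.12. Several lists of genes with general functions were complete. All 20 general housekeeping genes had a promoter peak in both tables, with medians of 6.98 and 6.56, from Sdha (4.78 and 4.64) to the chaperone gene Hspa8 (8.33 and 8.24). All 75 cytosolic ribosomal protein genes had one, with medians of 6.10 and 5.95, from Rpl37a (4.70 and 5.16) to Rpl13a (8.00 and 7.70). So had all 26 cell cycle genes (6.45 and 6.33), led by the replication genes Mcm7 (7.45 and 7.23) and Pcna (7.44 and 7.60), and all 25 chromatin regulators (5.99 and 5.85), led by the remodeler Smarca5 (7.26 and 7.04) and Hdac1 (7.17 and 6.81). The 16 immediate early genes, which respond within minutes to signals, reached the highest median of these lists, 7.0 and 6.79, with Jun (8.06 and 7.94) and Zfp36 (8.01 and 7.80) at the top.

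Histone genes had promoter peaks at 59 of 67 members in each table (6.87 and 6.65). Of the genes for mitochondrial ribosomal proteins, 78 of 78 and 77 of 78 had one (5.56 and 5.52). Proteasome genes had 36 and 35 of 38 (6.09 and 6.00), and the thymus subunit gene Psmb11 and the testis subunit gene Psma8 were without one in both. Genes named Zfp and a number had 305 and 302 of 358 (5.46 and 5.41). Interferon-stimulated genes had 15 and 16 of 17 (5.86 and 5.96). Irf1 (6.98 and 6.88) and B2m, the light chain of MHC class I (6.97 and 7.03), were highest, Oas1a (3.99 and 3.77) and Ifit3 (3.92 and 3.82) were lowest, and Ifi44 had none.

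**Figure D4:**
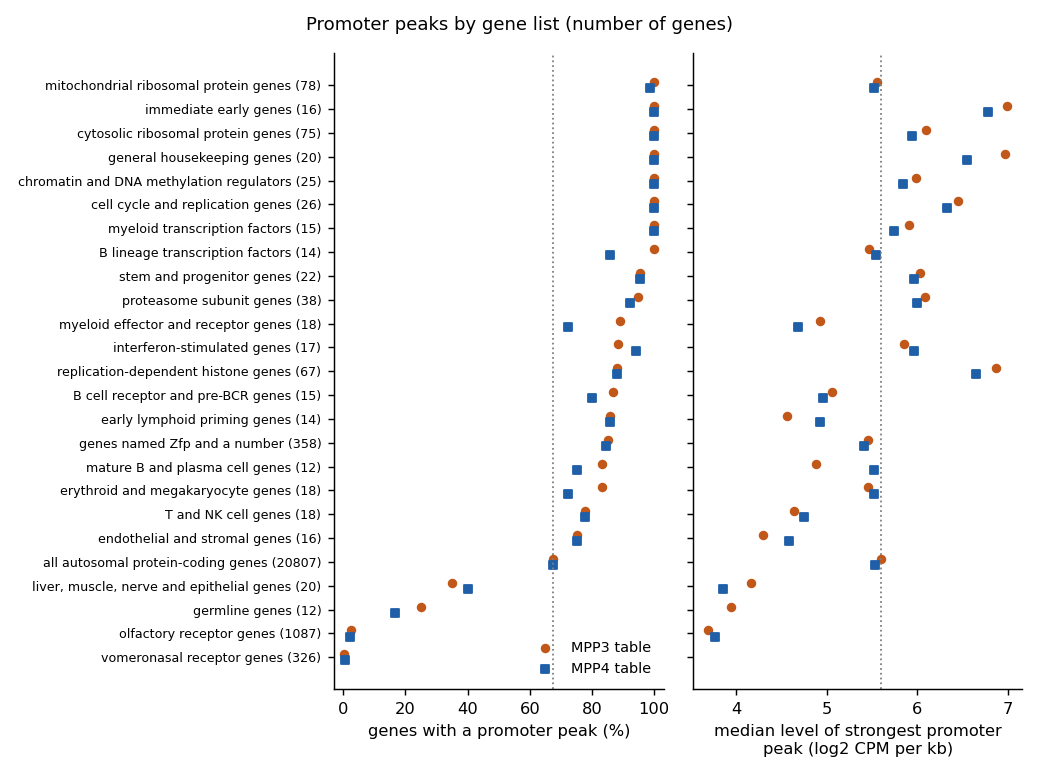
Median level of the strongest promoter peak of each gene (log2 CPM per kb) by gene list in both tables, beside the share of each list's genes with a promoter peak (number of genes in brackets). Dotted lines mark all genes in MPP3, and levels are drawn for lists with at least 3 promoter peaks. Immediate early and general housekeeping genes stand at the top, with 7.0 and 6.98 in MPP3, and olfactory receptor genes near the bottom, with 3.69.

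Promoter peaks were found at most B lineage transcription factor genes in these progenitors. All 14 had a promoter peak in MPP3 (78.5 to 100%) and 12 in MPP4 (60.1 to 96.0%), with medians of 5.47 and 5.54. Of all genes, 67.5% and 67.3% had one, and the MPP4 interval covers that share. The E protein gene Tcf3 was highest (6.78 and 6.43), followed by Bcl11a (6.24 and 6.34), and Ikzf3 was lowest (3.66 and 3.03) after Lef1 (4.25 and 4.42). Spib (4.85) and Pou2af1 (4.42) had one in MPP3 alone. Pax5, which commits cells to the B lineage, had 6.15 and 5.90. That peak lay in an intron, with its center at -544 bp in MPP3 and -540.5 bp in MPP4 from the nearest start. Outside the gene, Pax5 had a 150-bp promoter peak in MPP3 alone (4.26, log2 CPM 1.53). Within 500 bp of a start, all 14 genes of the list had a peak in MPP3 and 10 (71.4%) in MPP4, against 64.7% and 64.4% of all genes. Ebf1, the factor deleted in the Ebf1-KO mice, had a peak of 309 bp at chr11:44617081-44617389 in MPP3, outside the gene with its center 82 bp upstream of the start. Its level was 4.80 in MPP3 and 4.50 in MPP4, below the median of all genes in both tables. MPP4 had a weaker Ebf1 promoter peak in an intron (4.04).

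Genes of the B cell receptor and pre-BCR had promoter peaks at 13 of 15 members in MPP3 and 12 in MPP4, at lower levels (5.07 and 4.97). The intervals of these shares (62.1 to 96.3% and 54.8 to 93.0%) cover the 67.5% and 67.3% of all genes. Cd72 (5.99 and 6.14) and the kinase gene Lyn (5.89 and 5.39) were highest, and Cd22 (3.97 and 3.62) and Vpreb2 (4.13 and 3.24) lowest. The surrogate light chain gene Vpreb1 had 5.58 and 5.39. Its partner gene Igll1 had 4.81 in MPP3 and no promoter peak in MPP4, where the nearest peak lay 1418.5 bp from a start at a level of 6.40. Cd79a, which encodes a signaling chain of the receptor, had 4.59 in MPP3, while its nearest MPP4 peak was 6719.5 bp away. Of the mature B and plasma cell genes, 10 and 9 of 12 had a promoter peak, with medians of 4.89 and 5.52. The intervals of these shares (55.2 to 95.3% and 46.8 to 91.1%) cover those of all genes too. Xbp1 (6.85 and 6.52) and the MHC class II gene H2-Ab1 (5.54 and 5.96) were highest, Ciita (3.34 and 4.02) and Ms4a1 (3.74 in MPP3) were lowest, and Fcer2a and Jchain had none. As genotypes are averaged, the levels at genes of the B program mix cells with and without EBF1.

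Early lymphoid priming genes mostly stood higher in the MPP4 table than in the MPP3 table, relative to the difference over all genes. Several other lists did too. Of 14 genes, 12 had a promoter peak in each table, with medians of 4.57 and 4.93. Of the 11 present in both, 10 had an MPP4 minus MPP3 difference above the median of all genes. Above and below that median were 12 and 3 interferon-stimulated and 9 and 3 endothelial and stromal genes. T and NK cell genes had 9 and 4, and mature B and plasma cell genes 7 and 2. B cell receptor and pre-BCR genes had 3 and 7. CpG-poor shared promoter peaks had medians of 4.80 in MPP3 and 4.83 in MPP4, against 5.35 and 5.31 for all shared ones. Most peaks of the priming list were CpG-poor, and it was not tested against CpG-poor promoters alone. Flt3, the receptor gene used in the sort, had 6.99 and 7.55, and its log2 CPM was 5.92 and 7.01. Mef2c, a factor of lymphoid fate, had 7.20 and 7.50. Il7r, the interleukin 7 receptor gene, had 4.15 and 5.00. Ccr9 (3.27 and 3.87) and the recombinase gene Rag1 (3.58 and 3.57) were lowest. Dntt had no promoter peak in either table, with the nearest peaks at 1895.5 bp (6.49) and 1877.5 bp (6.41), while Rag2 had one in MPP3 alone (4.0) and Ly6d one in MPP4 alone (3.45).

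All 15 myeloid transcription factor genes had a promoter peak in both tables (5.91 and 5.75). Egr1 (7.46 and 7.31) and Cebpa (7.23 and 6.94) were highest, and Irf8 (4.68 and 5.20) and Cebpe (4.06 and 4.28) lowest. Cebpa, which drives granulocyte and monocyte fate, had its main peak over 562 bp at chr7:35118917-35119478 in MPP3, and MPP4 had another one centered at -713.5 bp (6.47). Spi1, the gene of PU.1, had its strongest promoter peak in an intron near an upstream start (6.85 and 7.15), and the peak at its next start had 6.33 and 6.14. Myeloid effector and receptor genes had 16 of 18 in MPP3 and 13 in MPP4, with medians of 4.93 and 4.68. The intervals of these shares (67.2 to 96.9% and 49.1 to 87.5%) cover the 67.5% and 67.3% of all genes. Fcgr3 (6.89 and 6.38) and the granule enzyme gene Mpo (6.16 and 4.88) were highest. S100a8 (3.34) and Ms4a3 (3.85) were lowest and had a promoter peak in MPP3 alone, as did the proteinase gene Prtn3 (4.91), whose nearest MPP4 peak was 1589.5 bp away at 6.34. Csf1r and S100a9 had none in either table.

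Stem and progenitor genes had 21 promoter peaks among 22 members in each table (6.04 and 5.97). Myc (6.98 and 6.88) and Lmo2 (6.89 and 6.70) were highest, and Cd48 (3.86 and 4.05) and Slamf1 (3.71 and 3.88), which encodes CD150, lowest. Fli1 had 5.59 in MPP3 and none in MPP4, where the nearest peak was 1319 bp away at 6.50. Of the markers behind the LSK gate, Kit had 6.57 and 6.76, whereas Ly6a, which encodes Sca-1, had no promoter peak in MPP3 and 1 at 3.82 in MPP4. That Ly6a peak was weak, with a log2 CPM of 1.15 over 157 bp, and its center lay at -925 bp, near the 1 kb limit. Cd34 had 6.26 and 6.38, and the pan-leukocyte gene Ptprc 4.84 and 5.36. Of the lineage antigens used for depletion, Cd3e and Ly6g had none, and Itgam had 4.57 and 4.89. The cells were sorted for Sca-1, and yet its gene had no promoter peak in MPP3 and only this weak one in MPP4.

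Markers of other cell types ranged from mostly with to mostly without a promoter peak. Of all genes, 67.5% in MPP3 and 67.3% in MPP4 had one. The intervals of the erythroid and megakaryocyte, the T and NK, and the endothelial and stromal genes cover these shares. Those of the liver, muscle, nerve and epithelial genes and of the germline genes lie below. Of 18 erythroid and megakaryocyte genes, 15 had a promoter peak in MPP3 and 13 in MPP4 (5.45 and 5.52). Nfe2, a factor of platelet formation, was among the densest of all lists (8.26 and 7.97), followed by the transferrin receptor gene Tfrc (6.86 in both), while Car1 (3.23) and Hbb-bs (3.39) had a weak one in MPP3 alone, and Hba-a1, Hba-a2 and Klf1 had none. T and NK cell genes had 14 of 18 in each table (4.64 and 4.75), from Cd4 (3.27 and 3.23) and Cd8b1 (3.29 in MPP3) to Cd5 (5.91 and 6.38) and Cd3d (6.96 and 7.27). Cd3e, Cd8a and Ptcra had none. Within 500 bp of a start, 10 of the 18 had one (55.6%), below the share of all genes (64.7% in MPP3) instead of above it. Endothelial and stromal genes had 12 of 16 in each (4.30 and 4.59), from Acta2 (3.66 and 3.57) and Cxcl12 (3.68 and 3.3) to Pecam1 (5.75 and 5.72) and Pdgfra (6.04 and 6.09), with none at Adipoq, Col3a1, Emcn and Lepr. Tek had 5.34 and 5.37, and reads from the Tek promoter in the Cre transgene cannot be told apart from it, in whichever mice carry that transgene. Liver, muscle, nerve and epithelial genes had 7 and 8 of 20 (4.16 and 3.85), with Mbp (5.51 and 5.59) and Ckm (5.44 and 5.40) highest and Actc1 (3.30 in MPP3) and Epcam (4.04 and 3.75) lowest. Germline genes had 3 and 2 of 12, namely Dazl (5.31 and 5.07), Prm1 (3.95 and 5.26) and, in MPP3, Dppa3 (3.64). Within 500 bp of a start, 1 of the 12 had one in MPP3 (8.33%).

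Promoter peaks were shared by the MPP3 and MPP4 tables more often than other peaks, by an overlap of at least 1 bp. The share was 88.2% against 72.0% in MPP3 and 89.1% against 72.9% in MPP4. In MPP3, 93.6% of the CpG-rich and 80.4% of the CpG-poor promoter peaks were shared, as were 12680 of the 13342 that hold a start, and 74.6% of those that do not. Peaks found in 1 table were short and weak. There were 2380 in MPP3 (median level 3.94, median length 202 bp) and 2220 in MPP4 (3.88 and 197.5 bp). Those with the highest log2 CPM in MPP3 included peaks at Ccdc114, Esyt1, Ube2g1, Ccng2, Rhob, Hnrnpl, Usp5, Arrb1 and Mafg, and those in MPP4 at Gm10717 (2 peaks), Hnrnpul1, Plekhg2, Hist1h3a, Inka1, Scai, Hist1h2bc, Fyco1 and Kpna1. Both Gm10717 peaks lie in the repeat block of chromosome 9, so their levels and their absence from MPP3 are uncertain.

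Genes with a promoter peak in 1 table likewise had weak ones. The 512 genes of MPP3 had a median level of 3.61 (3.55 to 3.65) and the 468 genes of MPP4 of 3.45, against 5.67 and 5.59 for genes with one in both. For 147 (28.7%) of the MPP3 genes, MPP4 had a peak within 2 kb of a start, just outside the 1 kb used here, and for 170 (33.2%) it had none within 10 kb. For the MPP4 genes the numbers were 108 (23.1%) and 157 (33.5%). Distances to peaks of the other table were added after seeing the data.

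Levels of the 17737 shared promoter peaks followed each other closely, more so than those of other shared peaks. Spearman's rho across peaks was 0.958 and Pearson's r 0.957, against a rho of 0.845 for 48587 other shared peaks. Peaks are not independent replicates, and base composition and length are common to both values of a peak. The median MPP4 minus MPP3 difference was -0.10 with an SD of 0.32 across promoter peaks, and 88.6% of them lay within 0.5 of that median. For other shared peaks the SD was 0.45, and 76.4% lay within 0.5.

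**Figure D5:**
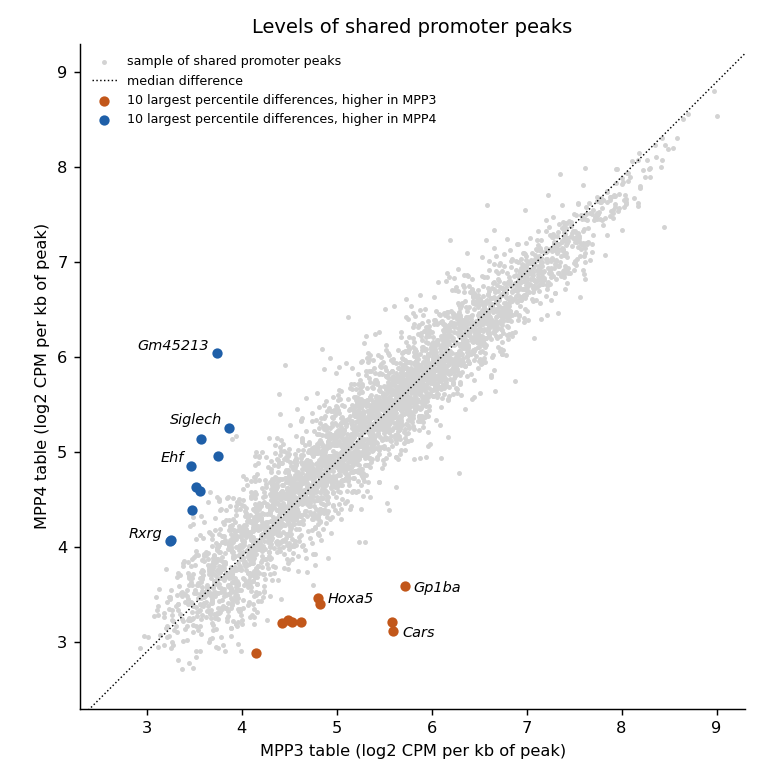
Level of shared promoter peaks in the MPP3 table (x axis) and the MPP4 table (y axis), both in log2 CPM per kb; gray points are a sample of all shared promoter peaks, and colored points the 10 with the largest percentile difference each way. The dotted line marks the median difference of -0.10, and most gray points lie close to it.

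The promoters that stood apart between the tables were mostly CpG-poor. More than 1 log2 unit from the median difference were 43 peaks on the MPP3 side and 89 on the MPP4 side, a limit chosen after seeing the data. Of these, 16.3% (8.12 to 30.0) and 5.62% (2.42 to 12.5) were CpG-rich, against 62.4% of all shared promoter peaks. Motifs were compared within the CpG-poor peaks, 36 of the 43 and 84 of the 89, with the CpG-poor peaks among all shared promoter peaks as background. The GATA core, the motif of factors of the erythroid, megakaryocyte and mast cell lineages, was in 33.3% (20.2 to 49.7) on the MPP3 side and 5.95% (2.57 to 13.2) on the MPP4 side, with a background of 9.5%. The RUNX core was in 5.56% and 21.4% (14.0 to 31.3), with a background of 10.2%, and the E2A-type E-box in 13.9% and 39.3%, with a background of 22.9%. The PU.1 core was in 19.4% (9.75 to 35.0) and 32.1% (23.1 to 42.7). The EBF1 consensus was in 1 of the 36 and 1 of the 84 peaks. The GC box was in 13.9% and 10.7%, below its background of 27.5% on both sides. As the peaks were chosen by their levels and the libraries are averaged, these shares are a description with no test.

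The 10 shared promoter peaks with the largest percentile difference toward MPP3 included a platelet gene, and the 10 toward MPP4 included genes of dendritic and natural killer cells. Cars (5.59 in MPP3 and 3.12 in MPP4) encodes a transfer RNA synthetase, and its peak lay in an intron. Mylk3 (5.58 and 3.22), a myosin kinase gene, held the 2 GATA cores shown above. Gp1ba (5.72 and 3.59) encodes the platelet receptor of von Willebrand factor, and Hoxa5 (4.81 and 3.47) a homeobox factor. Heyl, Col14a1, Nin, Ism2, Cyp2ab1 and Gm9844 made up the 10. At Col14a1 and Ism2 the difference came with peak length, since the log2 CPM per peak was 1.79 in both tables at Col14a1 (150 bp in MPP3 and 374 bp in MPP4) and 2.17 and 2.57 at Ism2 (201 and 632 bp). Mpo (6.16 and 4.88) and Csf2rb (5.55 and 4.39), named here after their values were seen, were also higher in MPP3. Other myeloid genes such as Spi1 (6.85 and 7.15) and Itgam (4.57 and 4.89) were higher in MPP4. Of the myeloid transcription factor genes, 8 lay above and 7 below the median MPP4 minus MPP3 difference of all genes. For the myeloid effector and receptor genes the counts were 5 and 8. The 10 toward MPP4 were led by Gm45213 (3.74 and 6.04), Noxred1 (3.58 and 5.15) and the epithelial ETS factor gene Ehf (3.47 and 4.86). Siglech (3.87 and 5.26), a surface receptor of plasmacytoid dendritic cells, held the RUNX core and E-boxes shown above. Klrd1 (3.75 and 4.96), which encodes CD94 of natural killer cells, held a PU.1 core. Resf1, Tanc2, Deptor, Rxrg and Zbtb8a made up the rest. The log2 CPM per peak of Zbtb8a was instead higher in MPP3 (2.81 and 2.23), where its peak had 729 bp against 279 bp.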

How the data were processed

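ATAC-seq was performed on 8 libraries of sorted MPP3 and MPP4 cells, 2 for each genotype and cell type. According to the methods and the submitters' processing notes, the authors trimmed reads with cutadapt 2.10, mapped them to mm10, removed duplicates, long fragments and regions that attract reads with deepTools, called peaks with MACS2 2.2.7.1 on the merged replicates of each condition, merged them within a cell type and fitted genotype with edgeR 3.32.0 in R 4.0.3. The deposited table of each cell type gives the position of each peak and its mean log2 CPM over the 4 libraries of both genotypes, which the authors computed with a prior count that raises weak peaks. The other deposited columns hold the authors' log2 fold change between genotypes, its F statistic, p-value and FDR, and were not used. Only short fragments enter the values. The depth of each library is unknown here, and no value per library was analysed, so there are no tests between groups and no p-values.

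Peak positions were compared with GENCODE vM21 starts on the 19 autosomes of GRCm38, with 1-based coordinates. A level is log2 CPM per kb of peak. Shares carry 95% Wilson intervals and medians 95% order-statistic intervals, which cover counting error only. The steps were tested on simulated data with known answers. Named genes were the 2 highest and 2 lowest of each list by MPP3 level, list members without a promoter peak where these were 6 or fewer, the 10 highest peaks by each measure, the 10 largest percentile differences each way, the 10 strongest peaks of 1 table, and genes of the study's question and sort. Some genes under this rule are not reported here. Others were named after their values were seen. The members and lists were chosen with earlier results of these data known. Alternatives were a window of 500 bp, peaks that hold a start, protein-coding transcripts alone, a minimum log2 CPM of 3, a stricter overlap, log2 CPM per peak, and motif search in whole peaks. Calculations used Python 3.11.15 with numpy 2.4.6, pandas 2.3.3, scipy 1.17.1 and pysam 0.24.0, and plots matplotlib 3.10.9.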

Additional observations from a re-analysis of the deposited data

How the results depend on the processing

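The number of promoter peaks depended on how a promoter was defined. It was 13342 in MPP3 and 13183 in MPP4 for peaks that hold a start, and 13228 and 13182 with a minimum log2 CPM of 3. The share of promoter peaks found in both tables was 86.2% of MPP3 and 87.6% of MPP4 peaks where 50% of the peak had to be covered, and 97.8% and 98.1% at a log2 CPM of at least 3. The median level of promoter peaks exceeded that of other peaks by 1.25 in MPP3 and 1.23 in MPP4. This difference was 1.83 and 1.66 in log2 CPM per peak, 0.61 and 0.49 at a log2 CPM of at least 3, and 1.37 and 1.32 for a window of 500 bp. Beside these 14 values, 18 others that answer a comparison stayed within their margins. With the window of 500 bp, 19 gene lists in place of 20 had a larger share with a promoter peak than all genes, the T and NK cell genes going from 77.8% to 55.6%. The share of germline genes in MPP3 moved from 3 of 12 to 8.33%, and that of olfactory receptor genes from 2.39% to 1.56% in MPP3 and from 25 of 1087 genes to 1.29% in MPP4. By log2 CPM per peak, Ism2 and Zbtb8a turned direction between the tables. Per-peak log2 CPM, which keeps differences in called length, placed 320 shared promoter peaks toward MPP3 and 609 toward MPP4 in place of 43 and 89, while peaks with lengths within 1.5 times of each other gave 29 and 75; this was added after seeing the data. No paired analysis was possible because the tables hold no value per library, and for the same reason no replicate could be left out. Weak peaks near the calling limit are the least certain, and many of those found in 1 table are of this kind.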
